A study of Mus musculus with 2 samples.

Results

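B cells made up 108 of the 19622 cells kept from 2 single-cell RNA sequencing libraries of UV-positive mouse lung cells. A cell was kept if 200 or more genes were detected in it and if mitochondrial genes took no more than 10% of its UMIs (unique molecular identifiers, each standing for 1 captured transcript). A B cell held at least 3 UMIs of *Cd79a*, *Cd79b* and *Ms4a1* together with at least 1 of *Cd79a*, no UMI of *Cd3e*, *Cd3d*, *Cd3g*, *Cdh5* or *Epcam*, and fewer than 20 UMIs of *S100a8* and *S100a9*. The cells were thus chosen by the UMI counts of these genes, so their levels are given as a description and were not tested. Members with at least 5 UMIs of *Jchain* (2 cells), and members in which *Col1a1*, *Col1a2*, *Col3a1*, *Mfap4*, *Dcn* and *Pdgfra* took 0.1% of UMIs or more (13 cells), are described apart, and the other 93 cells carry the comparisons.

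The mice were C57BL/6 males of wild-type genotype, 3 months old, with no treatment named in the labels, and the 2 libraries are replicates of this 1 condition. Lung cells were released with pronase and collagenase and sorted for live single cells with the blue autofluorescence that retinoids give under ultraviolet light, a gate that selected retinoid-containing cells and was not designed to select B cells. How many mice went into each library is not stated in the sources used here, so the spread between replicates may be technical. The cell types could differ in how often they entered this gate, and shares below are shares of sorted cells rather than of lung cells.

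B cells recognise antigen through a surface immunoglobulin made of 2 heavy and 2 light chains, which signals through the CD79a and CD79b proteins. Naive B cells carry the IgM and IgD classes on their surface, both spliced from one long heavy chain transcript, and each cell normally uses either a kappa or a lambda light chain. They also display peptides on MHC class II molecules to T cells, and they recirculate through blood, lymphoid follicles and tissues such as the lung with the help of chemokine and sphingosine 1-phosphate receptors. Activated cells can switch class and become plasma cells, which secrete antibody and lose most of the surface receptor and MHC class II transcripts.

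Replicate 1 held 38 B cells among 9634 kept cells, a share of 0.394% (exact Clopper-Pearson 95% interval 0.279% to 0.541%). Replicate 2 held 70 among 9988, or 0.701% (0.547% to 0.885%), and the mean share was 0.548% ± 0.217 (SD, n = 2 libraries). The intervals do not overlap, but they cover counting error only, and with 1 condition there is no group difference to test. The 93 cells used for comparisons were 32 from replicate 1 and 61 from replicate 2. They were shallow: their median was 1931 UMIs and 804.5 genes in replicate 1 and 2592 UMIs and 1024 genes in replicate 2, against 4480 and 7577.5 UMIs over all kept cells. Mitochondrial genes took a median 1.73% and 3.59% of their UMIs, against 1.26% and 2.32% over all kept cells. No doublet caller was run, the sort had scatter gates for single cells, and of 23 cell barcodes present in both libraries none belonged to a B cell.

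Few cells with *Cd79a* sat at the edge of the rule. One cell of replicate 1 had a sum of exactly 3 for the *Cd79a*, *Cd79b* and *Ms4a1* UMIs, and the lowest sum in replicate 2 was 6. Below the limit, 2 cells of replicate 1 and 0 of replicate 2 had *Cd79a* and a sum of 2, and 7 and 10 cells had a single *Cd79a* UMI. Without *Cd79a*, 10 and 4 cells had a sum of 2, 48 and 16 a sum of 1, and none a sum of 3. The other criteria removed more cells in replicate 2. Of the cells past the *Cd79a*, *Cd79b* and *Ms4a1* criterion, a *Cdh5* (endothelial cadherin) or *Epcam* (epithelial adhesion molecule) UMI left out 2 of 40 in replicate 1 and 36 of 106 in replicate 2. Their median depths were 6252.5 and 22768.5 UMIs, above those of the B cells, and of the 36 cells 32 held *Cdh5*. The 36 cells held 28615 UMIs of the kappa light chain gene *Igkc*, against 1856 in the 61 cells of replicate 2 used for comparisons. How these UMIs were spread over the 36 cells was not tested. The share of B cells in replicate 2 therefore depends on how these cells are counted.

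Genes outside the rule that define B cells were detected, the immunoglobulin genes described below among them. *Pax5*, the transcription factor that holds B cell identity, stood at 174 CPM in replicate 1 and 201 in replicate 2. CPM is the gene's UMIs per 1000000 UMIs, summed over the cells of a type in a library, and over the 86355 and 179441 UMIs of the 32 and 61 cells a single UMI equals 11.6 and 5.57 CPM. *Pax5* had 0 UMIs in the cells gated as T cells, dendritic cells and C1q macrophages. These gates took only cells with no UMI of *Cd79a* and *Ms4a1*, so cells with such B cell transcripts were left out beforehand. Of markers of other types, the 8 T cell markers summed to 11.6 and 0 CPM with 7 and 8 of them at 0, the 5 NK markers were all at 0, and the 4 neutrophil markers summed to 0 and 5.57. The 4 endothelial markers summed to 92.6 and 100.3 CPM, which came from *Pecam1* alone. The rule itself set *Cd3e*, *Cd3d*, *Cd3g*, *Cdh5* and *Epcam* to 0 and limited *S100a8* and *S100a9*, so the levels of these 7 genes are no check. The 7 macrophage markers summed to 3069 CPM with 5 at 0 and 89.2 with 3 at 0, and the 4 plasmacytoid dendritic cell markers to 162 and 289.8 with 2 at 0 in each replicate. The part of these cell types in the results was not tested.

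The 5 epithelial markers summed to 40056 CPM in replicate 1 and 212 in replicate 2. This came from 1 cell of replicate 1 with 13583 UMIs, which held 3219 of the 3280 *Sftpc* UMIs (surfactant protein C, made by alveolar type 2 cells) and 257 of the 264 *Lyz2* UMIs of that replicate's B cells. It supplied 15.7% of their summed UMIs. Without it the epithelial sum in replicate 1 was 879 CPM and the macrophage sum 109.9 CPM, and each comparison below was repeated without it. The remaining *Sftpc* UMIs were spread over 24 cells.

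B cells were compared with other immune cells and with fibroblasts of the same sort by summing UMIs per library and cell type and fitting edgeR's quasi-likelihood test with the library as a block. The comparison cells were 10 and 62 T cells (at least 2 UMIs of the 3 *Cd3* genes), 18 and 23 dendritic cells (at least 2 UMIs of *Flt3*, *Clec9a*, *Xcr1* and *Cd209a*), 44 and 21 macrophages with at least 10 *C1qa*, *C1qb* and *C1qc* UMIs, and 1301 and 801 fibroblasts, with at least 1% of UMIs from the 6 fibroblast genes, in replicates 1 and 2. Neutrophils (48 and 29) entered the fit only for its estimate of spread. The T cell sum of replicate 1 held 32037 UMIs, so its zeros are weak. T cells and fibroblasts also had to lack UMIs of *Cd79a*, *Cd79b* and *Ms4a1*, and dendritic cells and macrophages those of *Cd79a* and *Ms4a1*. Every type had to lack UMIs of *Cdh5* and *Epcam*, and fibroblasts also those of *Ptprc*, a marker of immune cells. Zeros and fold bounds of B cell genes below, and of immune cell genes against fibroblasts, hold for cells gated in this way. Of 3860 genes tested (the 27 genes used in any gate left out), 268 differed from T cells at a Benjamini-Hochberg adjusted p under 0.05 (6.94% of genes), 535 from dendritic cells (13.9%), 761 from C1q macrophages (19.7%) and 1819 from fibroblasts (47.1%). Fold changes against fibroblasts are relative to a median of -0.30 (log2) over the tested genes, and against the other types that median lay between -0.07 and 0.06.

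*Igkc*, the kappa light chain constant gene (GRCm38 chr6:70726435-70726966, plus strand), was at 12078 and 10343 CPM, and *Ighm*, the IgM heavy chain constant gene (chr12:113418558-113422730, minus strand), at 2721 and 2073. *Ighd*, which gives IgD and lies next to *Ighm* (chr12:113406604-113416324, minus strand), was at 347 and 741. The lambda constant genes *Iglc1*, *Iglc2* and *Iglc3* were at 2293 and 680, 1749 and 1867, and 1065 and 992 CPM. Of the genes of the rule, *Cd79a* (chr7:24897381-24902197, plus strand) was at 3926 and 3817, *Cd79b* (chr11:106311341-106314762, minus strand) at 1378 and 1337, and *Ms4a1*, which encodes CD20 (chr19:11249675-11266241, minus strand), at 695 and 881. The replicates lay close for most of these genes, with *Ighd* and *Iglc1* the least alike.

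Against T cells, each of the 12 receptor and co-receptor genes that could be tested, of 16 listed, was higher in B cells (3.96% of all genes were higher and 2.98% lower). *Ighm* stood at 62 and 111 CPM in T cells, a log2 difference of 4.60 ± 0.46 (SE; edgeR adjusted p = 1.1e-06). *Iglc2* was at least 201-fold higher and *Ighd* at least 67.6-fold, as T cells held none of their UMIs and the bound sets 3 UMIs over the group in place of 0. Both calls are lost with DESeq2 (adjusted p = 0.356 and 0.52). *Cd22*, an inhibitory co-receptor that binds sialic acid, was at 92.6 and 89.2 CPM and at least 9.95-fold higher (edgeR adjusted p = 0.032, lost with DESeq2 at 0.768). *Cd72* (log2 difference 3.34 ± 0.72) and *Cd37*, a tetraspanin of lymphocytes (2.23 ± 0.40), were also higher. For these genes the B cells of both replicates lay above the T cells of both.

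Against dendritic cells 9 of the 12 receptor genes were higher and 1 was lower, where 5.47% of all genes were higher and 8.39% lower. Against C1q macrophages 9 were higher and 2 lower, with 6.48% and 13.2% of all genes. The lower gene in both was *Fcgr2b*, the inhibitory Fc receptor that myeloid cells share: it was at 104 and 72.4 CPM in B cells, 314 and 337 in dendritic cells, and 289 and 301 in C1q macrophages (log2 differences -1.99 ± 0.52 and -1.98 ± 0.52; edgeR adjusted p = 0.013 and 0.01). *Cd81*, a tetraspanin that many cell types carry, was at 197 and 167 CPM in B cells and 1253 and 867 in C1q macrophages (log2 difference -2.66 ± 0.38). Against fibroblasts 11 of the 12 were higher and *Cd81* was lower (-3.18 ± 0.37), where 18.7% of all genes were higher and 28.5% lower.

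*Ighm* was not limited to B cells. C1q macrophages held 199 and 119 CPM of *Ighm* and dendritic cells 53.8 and 64.8, but *Igkc* was at 0 and 6.99 and at 0 and 4.32 in the same cells. *Ighm* in B cells was 3.73 ± 0.41 (log2) above C1q macrophages and 5.27 ± 0.46 above dendritic cells (edgeR adjusted p = 1.7e-06 and 1.3e-07). Fibroblasts held 0.190 and 0.373 CPM of *Ighm*. The source of *Ighm* UMIs outside B cells was not tested.

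**Figure D1:**
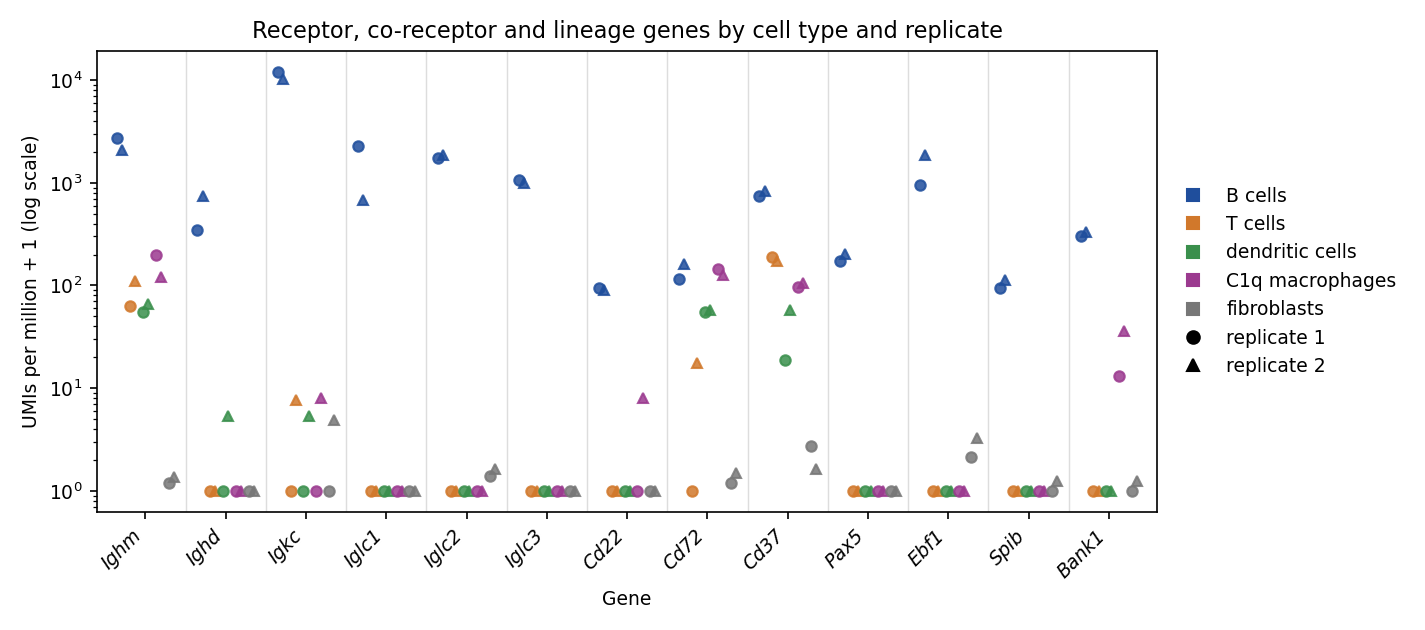
Levels of 13 receptor, co-receptor, transcription factor and adaptor genes (x axis) in CPM plus 1 (log y axis) for 5 cell types (colours), with 1 point for the summed cells of each replicate (circles, replicate 1; triangles, replicate 2). B cells lie above the other types for *Igkc* (12078 and 10343 CPM) and the lambda genes, whereas *Cd72* of B cells overlaps that of C1q macrophages.

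Of 13 tested receptor signalling genes, 7 were higher than in T cells (*Syk*, *Lyn*, *Blnk*, *Plcg2*, *Bank1*, *Ptpn6* and *Inpp5d*), 3 than in dendritic cells (*Syk*, *Blk* and *Bank1*), 4 than in C1q macrophages (these 3 and *Malt1*) and 12 than in fibroblasts, where 3.96%, 5.47%, 6.48% and 18.7% of all genes were higher. None was lower in any of the 4 comparisons. *Bank1*, an adaptor that ties the receptor to calcium signalling, was at 301 and 329 CPM against 0 UMIs in T cells (at least 35.2-fold higher), 0 in dendritic cells (at least 36.5-fold) and 12.1 and 35.0 in C1q macrophages (log2 difference 3.63 ± 0.67). *Lyn*, a Src family kinase that myeloid cells also use, was at 208 and 256 CPM in B cells, against 247 and 294 in C1q macrophages and 296 and 220 in dendritic cells, where its log2 differences of -0.35 ± 0.38 and -0.13 ± 0.38 did not pass the test. *Blnk*, the adaptor downstream of the kinase SYK, was at 116 and 94.7 CPM and at least 11.2-fold higher than in T cells (edgeR adjusted p = 0.013). *Ptpn6* and *Inpp5d*, which encode inhibitory phosphatases, lost the call against T cells without the library block (adjusted p = 0.119 and 0.0602).

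Lineage transcription factors followed. *Ebf1*, an early factor that opens B cell genes, was at 961 and 1856 CPM in B cells with 0 UMIs in T cells, dendritic cells and C1q macrophages (at least 172-fold, 179-fold and 161-fold higher), and it was found in 31 of 32 and 61 of 61 cells. *Pax5* was at least 21.1-fold above T cells, 21.9-fold above dendritic cells and 19.8-fold above C1q macrophages. *Spib*, an ETS family factor, and *Pou2af1*, the co-activator of octamer-binding factors, were at 92.6 and 111 and at 116 and 94.7 CPM, also with 0 UMIs in those 3 types. *Spi1*, which encodes PU.1 and is used at high level by myeloid cells, was at 69.5 and 100.3 CPM, at least 9.95-fold above T cells but lower than in dendritic cells (-1.97 ± 0.43) and C1q macrophages (-2.29 ± 0.43). In all, 8 of 12 tested factors were higher than in T cells, 8 than in dendritic cells, 7 than in C1q macrophages and 10 than in fibroblasts, beside 3.96%, 5.47%, 6.48% and 18.7% of all genes. DESeq2's Wald test gave no call for several genes with 0 UMIs in the other type, *Ebf1* and *Pax5* against T cells among them (adjusted p = 0.38 and 0.67), so these calls rest on edgeR.

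The promoter windows of genes of 4 lists, 250 bases before to 50 after each RefSeq start (GRCm38.p6), were searched on both strands for the octamer ATGCAAAT, which POU2F factors bind, and for a palindrome of the EBF1 type, TCCC and GGGA with any 2 bases between. These 2 motifs do not overlap in letters. Among the 16 receptor genes 7 had a window and *Cd22* held the second motif; among 17 signalling genes 13 had a window and *Blnk* and *Prkcb* held the octamer. Among 16 transcription factor genes 14 had a window, of which *Foxo1* held the second motif and none the octamer, and the 10 windows of 15 antigen presentation genes held neither. These 3 stretches are shown because their genes encode receptor components or signalling proteins described here, with the match in capitals, 5′ to 3′ along the gene.
Cd22, chr7:30879042-30879103, minus strand: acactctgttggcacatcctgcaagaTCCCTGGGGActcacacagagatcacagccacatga
Blnk, chr19:40994318-40994377, minus strand: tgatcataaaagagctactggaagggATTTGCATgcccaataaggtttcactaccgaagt
Prkcb, chr7:122289029-122289088, plus strand: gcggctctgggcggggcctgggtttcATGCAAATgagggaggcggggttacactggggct
The *Blnk* match reads as the reverse complement. Over all genes with a window, 1.97% held the octamer and 1.06% the palindrome, so a match is a description of the window and not evidence of binding. *Prkcb*, a protein kinase C downstream of the receptor, was at 92.6 and 106 CPM and was called against fibroblasts but not against T cells (log2 difference 2.15 ± 0.84; edgeR adjusted p = 0.16).

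The class of the receptor could be read in single cells. *Ighm* was detected in 91 of the 93 cells, at a median of 3.5 UMIs in replicate 1 and 4 in replicate 2. *Ighd* was detected in 16 of 32 cells (50%, exact 95% interval 31.9% to 68.1%) and in 50 of 61 (82.0%, 70.0% to 90.6%), and each of the 66 cells with *Ighd* also held *Ighm*. After thinning each cell to 1000 UMIs the shares were 37.5% and 47.5%, with no *Ighd* UMI in thinned T cells (median depths 3245 and 4664 UMIs before thinning). The *Ighd* shares of the replicates therefore lay closer at equal depth. Class-switched transcripts were rare in these 93 cells: *Ighg2b* had 3 UMIs in 1 cell and *Igha* had 3 UMIs over 3 cells.

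Kappa dominated the light chains. Lambda genes gave more than 50% of the light chain UMIs in 6 of 32 cells (18.8%, exact 95% interval 7.21% to 36.4%) and in 7 of 61 (11.5%, 4.74% to 22.2%), which is 13 of 93 over both (14.0%). The median lambda share was 26.4% and 14.1% of a cell's light chain UMIs. Most cells, 87 of 93, held UMIs of both kinds, 53 had a lambda share between 10% and 50%, and 4 cells held no *Igkc* at all. Whether the second kind came from the cell or from free RNA was not tested. *Iglc2* and *Iglc3* are near-identical copies, and reads may be split between them.

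Lambda cells differed in their leading gene. *Iglc1* led in 7 of the 13 cells, 5 of them in replicate 1 and 1 of these tied with *Iglc2*, *Iglc2* in 4 cells of replicate 2, and *Iglc3* in 1 cell of each replicate. One cell of replicate 1 held 52 *Iglc1*, 5 *Iglc2* and 0 *Igkc* UMIs, and 1 of replicate 2 held 82 *Iglc2*, 22 *Iglc1* and 0 *Igkc* UMIs. The lead of *Iglc3* in replicate 1 was in the *Sftpc*-bearing cell, with 16 *Iglc3* and 13 *Igkc* UMIs. Of the 198 *Iglc1* UMIs of replicate 1, 108 lay in 2 cells.

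Variable gene segments were too sparse to define clonotypes. *Igkv* genes gave 35 UMIs in 23 cells from 18 segments, *Ighv* genes 30 UMIs in 23 cells from 21 segments, and *Iglv* genes 10 UMIs in 6 cells. The most frequent *Igkv* segment was the leading one in 3 cells and the most frequent *Ighv* segment in 2.

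**Figure D2:**
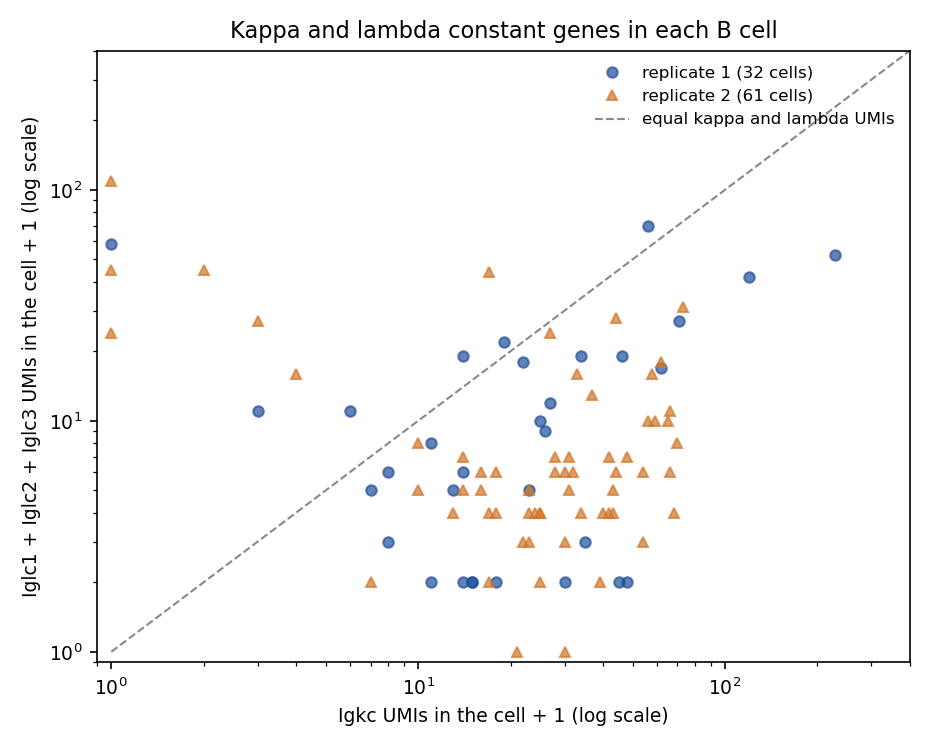
Each of the 93 B cells by its *Igkc* UMIs (x axis) and its summed *Iglc1*, *Iglc2* and *Iglc3* UMIs (y axis), both plus 1 on log scales, with replicate 1 as blue circles and replicate 2 as orange triangles. The 13 cells above the dashed line of equal counts have more lambda than kappa, and most cells lie below it with some of both.

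Genes of B cell stages were measured by lists. *Fcer2a*, which encodes CD23 of follicular B cells (chr8:3681737-3694175, minus strand), was at 162 and 228 CPM, in 9 of 32 and 22 of 61 cells. It was at least 22.8-fold above T cells and 21.3-fold above C1q macrophages, and *Cd55*, a complement regulator, was at 428 and 496 CPM and higher than in each of the 4 types. The *Fcer2a* calls against T cells and C1q macrophages are lost with DESeq2 (adjusted p = 0.651 and 0.371). The recombinase genes *Rag1* and *Rag2*, the terminal transferase *Dntt*, the surrogate light chain genes *Igll1* and *Vpreb1*, and *Cd5*, a surface marker of B-1a cells, had 0 UMIs in the 93 cells. The 1 tested precursor gene, *Cd24a*, was higher than in T cells, C1q macrophages and fibroblasts, but not dendritic cells. Over all genes 3.96%, 6.48% and 18.7% were higher than in those 3 types. Thinned to 1000 UMIs, 6 of 32 and 7 of 61 cells held *Cd24a*. Of 3 tested B-1 genes, *Spn* was higher than in fibroblasts and *Ahnak* and *S100a6* lower, beside 18.7% and 28.5% of all genes. None of the 3 was called higher than in T cells, dendritic cells or C1q macrophages, and 0 of 32 and 0 of 61 thinned cells held *Spn*. *Bhlhe41* was detected in 2 and 1 thinned cells, and *Zbtb32* in 1 and 1. In the germinal centre list *Mef2b* was at 0 and *Bcl6* had 8 UMIs. At this depth 3 UMIs over the summed cells correspond to 34.7 and 16.7 CPM. Levels below these rest on fewer than 3 UMIs, and 0 UMIs does not show that a gene was absent.

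Some stage genes rested on few, deep cells. *Plac8* was at 2351 and 635 CPM and higher than in T cells (log2 difference 4.51 ± 0.88; edgeR adjusted p = 0.0021), but 65.5% of its UMIs in replicate 1 lay in 2 cells. *S100a6*, a calcium-binding protein, was at 625 and 201 CPM and lower than in T cells (-2.72 ± 0.42), and 81.5% of its UMIs in replicate 1 lay in 1 cell. That cell had 6608 UMIs, 25 *Ighm* and no *Ighd*. Another cell of replicate 1, with 9970 UMIs and no *Ighd*, held the 4 *Mki67* UMIs, 5 of 6 *Top2a* UMIs and 21 of 27 *Stmn1* UMIs of its replicate, all genes of dividing cells, beside 64 *Ighm* and 227 *Igkc* UMIs. Of the cells with no *Ighd* UMI, *Fcer2a* was detected in 1 of 16 and 3 of 11, and among cells with *Ighd* in 8 of 16 and 19 of 50.

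The 2 members with *Jchain*, both in replicate 2, carried switched classes. One held 14601 UMIs, of which 5337 were *Igkc*, 631 *Igha* (the IgA heavy chain), 523 *Jchain* (which joins IgA and IgM into polymers) and 40 *Xbp1* (a secretory factor), with 0 *Ighm* and 0 *H2-Aa* UMIs and 9 *Cd79a* UMIs. The other held 12461 UMIs with 12 *Ighg2b*, 6 *Jchain*, 192 *Igkc*, 62 *Iglc1*, 43 *Cd79a*, 25 *Ms4a1* and 19 *H2-Aa* UMIs, and 0 *Ighm*. The first was therefore low in the B cell surface genes that the second kept.

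The 13 members with fibroblast transcripts, 6 in replicate 1 and 7 in replicate 2, were deeper. Their median was 6345 and 11757 UMIs, against 1931 and 2592, while their median counts per cell of *Cd79a* (7.5 and 9 against 8 and 10), *Ighm* (3 and 3 against 3.5 and 4) and *Igkc* (19 and 31 against 19.5 and 27) were close to those of the 93 cells. Their *Cd79a* level was 1306 and 975 CPM and their *Igkc* level 2957 and 2780, below the levels of the 93 cells. They also held the immediate early gene *Jun* at 4337 and 3755 CPM. With all 108 cells in the B cell sums, 588 genes differed from T cells (445 higher and 143 lower, against 153 and 115) and 823 from dendritic cells (445 and 378, against 211 and 324), so the split between higher and lower genes depends on whether these 15 cells are counted.

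**Figure D3:**
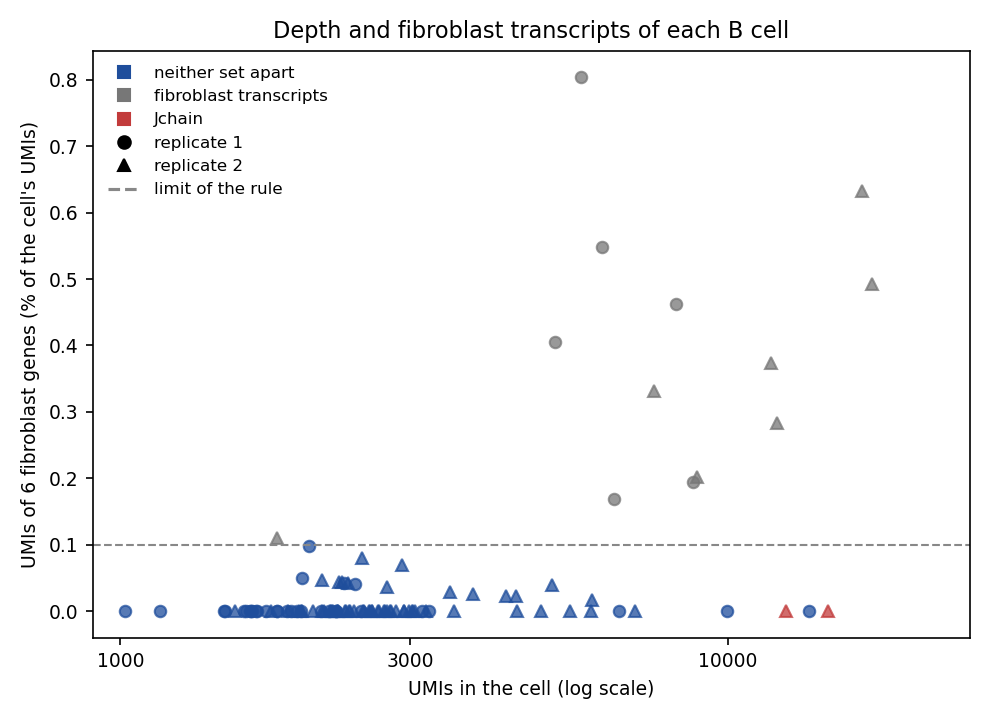
UMIs of each of the 108 members (log x axis) against the percent of its UMIs from 6 fibroblast genes (y axis), coloured by whether the member was set apart, with circles for replicate 1 and triangles for replicate 2. Members above the dashed limit of 0.1% run from 1808 to 17262 UMIs, and 76 of the 93 others have no UMI of these genes.

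*Cd74*, the invariant chain of MHC class II, was at 12784 and 12205 CPM in B cells, 0 and 16.8 in T cells, 33080 and 24204 in dendritic cells, and 34914 and 23862 in C1q macrophages. *H2-Aa* was at 3486 and 3823 in B cells, against 0 in T cells, 11488 and 9032 in dendritic cells and 11521 and 8830 in C1q macrophages. The B cells of both replicates lay below both replicates of either myeloid type for these genes. Of 12 tested antigen presentation genes, 12 were higher than in T cells (3.96% of all genes) and 12 than in fibroblasts (18.7% of all genes), with *H2-Aa* at least 409-fold above T cells.

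Against dendritic cells 2 genes of this list were higher, 3 lower and 7 did not pass, where 5.47% of all genes were higher and 8.39% lower. Against C1q macrophages 3 were higher, 5 lower and 4 did not pass, where the shares over all genes were 6.48% and 13.2%. *H2-Eb1* was lower than in dendritic cells (log2 difference -1.54 ± 0.38) and than in C1q macrophages (-1.95 ± 0.39; edgeR adjusted p = 0.009 and 0.001). *H2-Aa* differed by -1.53 ± 0.50 and -1.64 ± 0.50 (edgeR adjusted p = 0.047 and 0.025), calls that are lost with DESeq2 (adjusted p = 0.327 and 0.238) or without the library block (0.124 and 0.0765). *Cd74* did not pass (log2 differences -1.23 ± 0.70 and -1.39 ± 0.70; edgeR adjusted p = 0.28 and 0.18), though it did against C1q macrophages without the *Sftpc*-bearing cell (adjusted p = 0.0322).

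The chains of the non-classical molecules that load or edit peptides went in both directions. *H2-DMb1* was at 127 and 72.4 CPM in B cells and 1463 and 799 in dendritic cells (log2 difference -3.53 ± 0.40). *H2-DMb2*, its neighbouring paralog, was at 452 and 468 in B cells, 179 and 164 in dendritic cells, and 24.1 and 6.99 in C1q macrophages, and was higher in B cells by 1.40 ± 0.40 and 4.69 ± 0.58. Against dendritic cells this call is lost with no filter on low counts (adjusted p = 0.141), with all 108 cells of the rule (0.0764) and without the library block (0.0586). The near-identical sequences of these 2 genes may share reads, so the split between them is uncertain. *H2-Ob* and *H2-Oa*, the chains of H2-O that restrains peptide loading, were at 301 and 390 and at 290 and 212 CPM in B cells. Both were higher than in C1q macrophages (3.74 ± 0.59 and 5.10 ± 0.70), and *H2-Ob* but not *H2-Oa* passed against dendritic cells (2.04 ± 0.47 and 0.61 ± 0.40). *Ctss*, a lysosomal protease, was lower than in C1q macrophages (-2.50 ± 0.49).

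**Figure D4:**
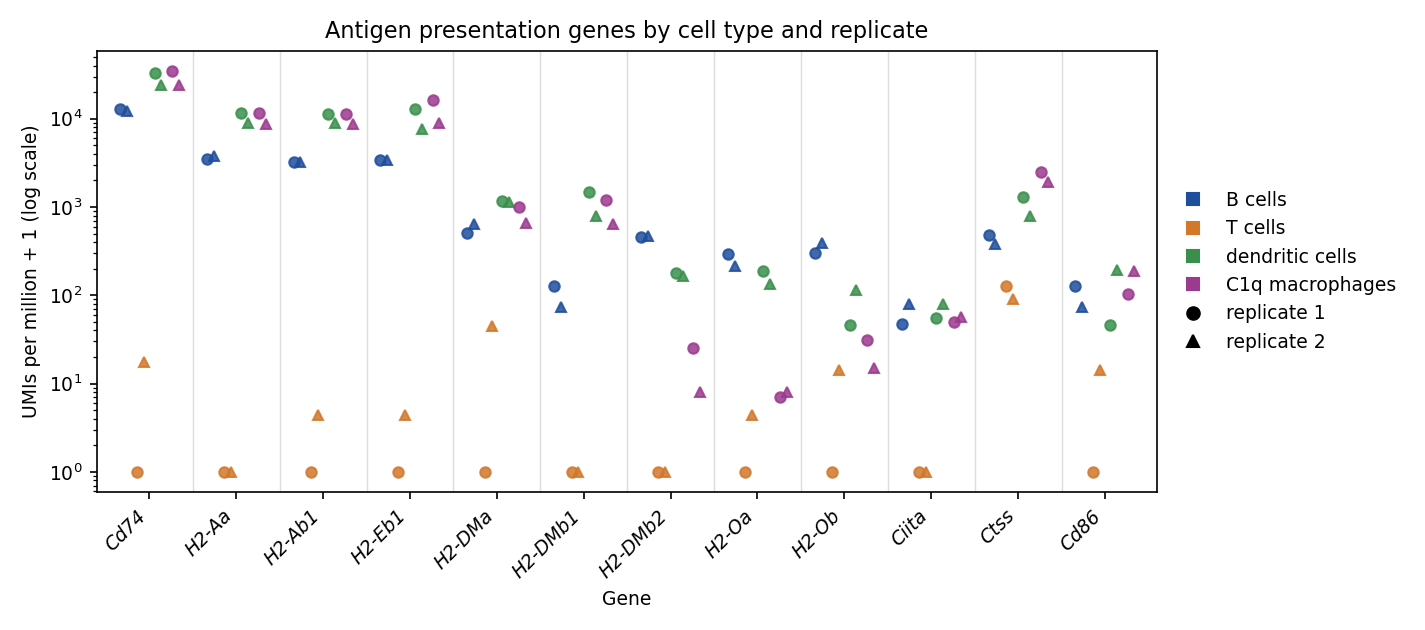
Levels of 12 antigen presentation genes (x axis) in CPM plus 1 (log y axis) in B cells, T cells, dendritic cells and C1q macrophages (colours), with a circle for replicate 1 and a triangle for replicate 2. *Cd74* and *H2-Aa* of B cells sit below both myeloid types, *H2-DMb2* and *H2-Ob* sit above them, and T cells are at or near 0 for most genes.

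Among homing genes few differed from T cells and more from the myeloid types, though the difference between these comparisons was not tested. *Ccr7*, the receptor that guides lymphocytes to lymphoid tissue, was at 463 and 646 CPM in B cells, 31.2 and 271 in T cells, 71.8 and 233 in dendritic cells and 0 in C1q macrophages. *S1pr1*, the sphingosine 1-phosphate receptor used for exit into blood and lymph, was at 336 and 267 CPM against 156 and 214 in T cells. *Klf2*, a factor that drives *S1pr1*, was at 1679 and 2296 CPM against 187 and 1179 in T cells. Of 13 tested genes, 3 were higher than in T cells (*Cxcr5*, *Ccr7* and *Klf2*), 6 higher and 2 lower than in dendritic cells, 7 higher and 1 lower than in C1q macrophages, and 11 higher and 1 lower than in fibroblasts. Over all genes the shares were 3.96% higher than in T cells, 5.47% higher and 8.39% lower than in dendritic cells, 6.48% and 13.2% for C1q macrophages and 18.7% and 28.5% for fibroblasts. *S1pr1* did not pass against T cells (log2 difference 0.62 ± 0.45; edgeR adjusted p = 0.59).

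*Cxcr5*, the follicle-homing receptor, was at 174 and 89.2 CPM and at least 12.8-fold above T cells (edgeR adjusted p = 0.023), a call that is lost with DESeq2 (adjusted p = 0.73) and in B cells with no UMI of the 6 fibroblast genes (0.0545). *Ccr7* and *Klf2* were higher than in T cells by 1.78 ± 0.46 and 1.87 ± 0.51 (adjusted p = 0.022 and 0.027), and both calls are lost without the library block (0.209 and 0.457) and with DESeq2 (0.15 and 0.0703). Against dendritic cells *S1pr1* was at least 33.1-fold higher and *Klf2* was higher by 3.35 ± 0.53 (log2), whereas *Cd44* (-2.23 ± 0.48) and *Itgb1* (-1.74 ± 0.50), adhesion receptors, were lower. The *Itgb1* call is lost without the library block (adjusted p = 0.0583) and with all 108 cells of the rule (log2 difference -0.33, adjusted p = 0.63). Among 6 tested survival and sensing genes, *Ly86*, a partner of the receptor RP105, was at least 35.2-fold above T cells, and *Bcl2*, an inhibitor of apoptosis, was lower than in T cells (log2 difference -2.41 ± 0.56), at 46.3 and 78.0 against 62.4 and 546 CPM (edgeR adjusted p = 0.0098). The *Bcl2* call is lost with DESeq2 (adjusted p = 0.224) and in a fit of these 2 cell types alone (0.0612).

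Genes of retinoid storage, the property behind the sort, were at or near 0 in B cells. *Lrat*, which esterifies retinol for storage, had 0 UMIs in replicate 1 and 11.1 CPM (2 UMIs) in replicate 2, against 324 and 195 CPM in fibroblasts, a log2 difference of -5.03 ± 0.73 (edgeR adjusted p = 1.1e-05). *Rbp4*, the retinol carrier, had 0 UMIs against 508 and 242 CPM (at least 30.8-fold lower), and *Dhrs3*, a retinal reductase, 0 against 106 and 79.3 (at least 7.98-fold lower). The *Rbp4* call is lost with DESeq2 (adjusted p = 0.223). *Aldh1a1*, which makes retinoic acid, was at 0 and 16.7 against 567 and 1252 (-6.75 ± 0.64). The B cells of both replicates lay below both replicates of fibroblasts for each of these 4 genes.

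Of 21 listed retinoid genes 7 could be tested, and against T cells none was called. As 6.94% of all genes were called in that comparison, no call among 7 genes says little about them. Against fibroblasts 5 of the 7 were lower and 1 was higher, where 28.5% of all genes were lower and 18.7% higher. Counts were low. *Rdh12*, a retinol dehydrogenase, was at 23.2 and 27.9 CPM in B cells and 1.14 and 0.497 in fibroblasts (4.81 ± 1.03; edgeR adjusted p = 0.00061), and *Rara*, a retinoic acid receptor, was at 11.6 and 50.2 against 28.3 and 38.4 (-0.02 ± 0.57). Of the 14 genes that could not be tested, 11 had 0 UMIs in the 93 cells. *Lrat* had 0 UMIs in T cells and did not pass the test between B and T cells. How B cells came to lie in the UV-positive gate was not tested.

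Of 10 tested lipid genes, 6 were lower than in fibroblasts (*Lpl*, *Lrp1*, *Vldlr*, *Plin2*, *Plin3* and *Lipa*), 1 was higher and 3 did not pass, where 28.5% of all genes were lower and 18.7% higher. *Lrp1*, a lipoprotein receptor, had 0 UMIs in B cells against 750 and 828 CPM in fibroblasts (at least 70.6-fold lower), and *Plin2*, a lipid droplet coat protein, was at 11.6 and 16.7 against 155 and 135 (-3.39 ± 0.63). *Cd36*, a fatty acid receptor, was higher at 127 and 55.7 CPM against 3.61 and 4.35 (4.29 ± 0.80), from 11 UMIs in 3 of 32 cells and 10 UMIs in 4 of 61. The immediate early genes *Fos* (718 and 368 against 4536 and 3411 CPM), *Fosb*, *Jun*, *Egr1* and *Dusp1* were lower than in fibroblasts, as was *Hspa1a*, a heat shock gene, with 0 UMIs. With all 108 cells of the rule *Fos*, *Jun* and *Egr1* did not pass (adjusted p = 0.058, 0.0782 and 0.158), nor did *Egr1* with DESeq2 (0.125). *Junb* and *Jund* did not pass, and *Btg1*, an anti-proliferative gene, and *Cd69*, an early activation antigen, were higher (2.64 ± 0.34 and at least 1285-fold).

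**Figure D5:**
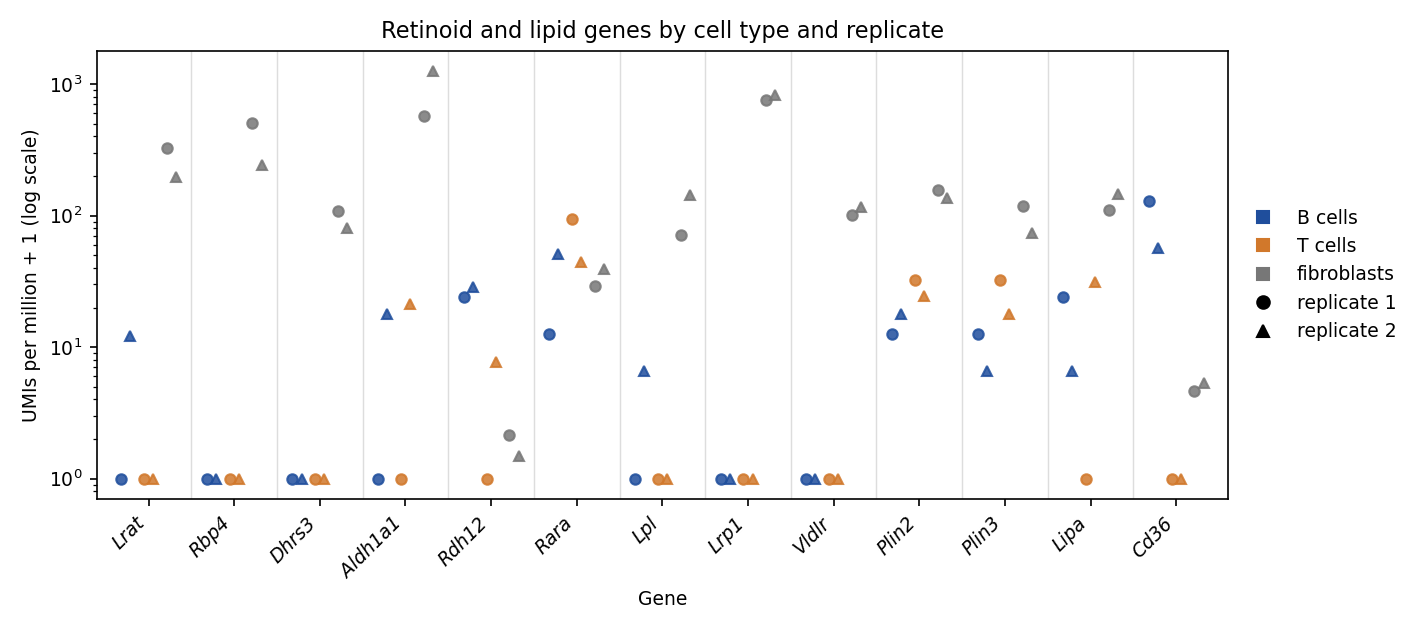
Levels of 13 retinoid and lipid genes (x axis) in CPM plus 1 (log y axis) in B cells, T cells and fibroblasts (colours), with a circle for replicate 1 and a triangle for replicate 2. *Lrat*, *Rbp4*, *Aldh1a1* and *Lrp1* of B cells sit far below fibroblasts and beside T cells, and *Cd36* sits above both.

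Outside the lists, the genes with the largest differences repeated few names. *Ly6d*, a surface protein of lymphoid progenitors and B cells, was at 2594 and 1733 CPM in B cells with 0 UMIs in T cells, dendritic cells and C1q macrophages (at least 222-fold, 230-fold and 207-fold higher). *Fcmr*, the Fc receptor for IgM, was at 510 and 708 and at least 73.5-fold above dendritic cells and 66.3-fold above C1q macrophages. DESeq2 gave no call for *Ly6d* against T cells, dendritic cells or C1q macrophages (adjusted p = 0.344, 0.173 and 0.15). It also gave none for *Fcmr* in either comparison (0.284 and 0.25), *Ccl17* against dendritic cells (0.238) or *Pf4* against C1q macrophages (0.151). At the other end, B cells had 0 UMIs of *Ccl5*, at 1279.8 and 4641 CPM in T cells (at least 382-fold lower), of *Ccl17*, at 135 and 1733 in dendritic cells, and of *Cxcl2* and *Pf4*, at 2289.8 and 4523 and at 2748 and 1601 in C1q macrophages (at least 295-fold and 196-fold lower).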

How the data were processed

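UMI counts of 32285 genes were deposited as 1 filtered matrix per library. Per the labels and file headers, the authors made these counts with 10x Genomics 3′ v3.1 chemistry and Cell Ranger 5.0.1 on build mm10 (GRCm38), and the annotation release is not given in the sources used here. The 2 libraries held 9669 and 10050 barcodes and 48762735 and 93970185 UMIs. No doublet caller was run. Cells were gated by UMIs of named genes (Python 3.11.15, numpy 2.4.6, pandas 2.3.3, scipy 1.17.1), raw UMI counts were summed per library and cell type, and 12 sums of 6 types were fitted with edgeR 4.0.16 (R 4.3.3; TMM, quasi-likelihood F-test, library as block, 5 residual degrees of freedom), with Benjamini-Hochberg adjustment over 3860 genes. The same library number marks the same sort, which is where the pairing of the sums comes from. Genes used in any gate were not tested. With the library as a block, the test sets the mean difference between 2 cell types against a spread. That spread measures only how the cell types differ in their change between 2 libraries. This spread is pooled over the 6 types and is not that of B cells alone. Genes were named from gene lists of B cell biology, retinoid and lipid handling and cell type markers, and as the 8 genes per direction and comparison with the largest change among those called with at least 100 CPM in both libraries of the higher type, leaving out gate, ribosomal protein, mitochondrial and immunoglobulin variable genes. Members and lists were chosen with earlier results of these data known. Exact binomial intervals (95%) and floors of 3 UMIs cover counting error only. Alternatives were DESeq2 1.42.0, its size factors, no filter on low counts, no block, other cell filters and gates, 2 types only and single libraries. The fitting code was tested on simulated data. Promoter sequences are from RefSeq (GRCm38.p6). Some listed genes are not reported here.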

Additional observations from a re-analysis of the deposited data

How the results depend on the processing

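With all 108 cells of the rule, 588 genes differed from T cells and 823 from dendritic cells, against 268 and 535 with the 93 cells, and *Jun* against C1q macrophages turned from -2.13 to 0.0739 (log2; adjusted p = 0.945); the cause was not tested. The other alternatives moved no count of called genes by over 1.5 times. Without the replicate block the counts were 213 against T cells, 409 against dendritic cells, 644 against C1q macrophages and 1616 against fibroblasts, and DESeq2 gave 202, 489, 683 and 1565. Without the *Sftpc*-bearing cell, an alternative chosen after seeing the data, they were 316, 613, 817 and 1805. Of 1696 fits under alternatives of named genes that had passed the test, 1608 kept their direction and side of the threshold, 87 no longer passed (45 of them with DESeq2, 17 without the replicate block) and 1 reversed. The share of B cells was 0.394% and 0.701% in single libraries, and the share of lambda cells 18.8% and 11.5%. Counts of called genes have no value with a library left out, since no residual degrees of freedom remain. Depth limits genes under about 3 UMIs per summed group, and 10 T cells in replicate 1 limit that comparison.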
